A study of Mus musculus with 12 samples.

Results

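Oxidative phosphorylation is the last stage of respiration, in which electrons from NADH and succinate pass along protein complexes of the inner mitochondrial membrane to oxygen, and the proton gradient built on the way drives the synthesis of ATP. The genes described here encode the subunits of these complexes. They were taken as the genes whose probe set carries exactly 1 symbol and whose symbol starts with Nduf followed by a, b, c, s or v and a digit, with Sdha to Sdhd, Uqcr, Cox4 to Cox8 or Atp5; where several probe sets named 1 gene, the one with the highest mean over the 12 arrays was kept. The rule used no difference between groups. It gave 81 genes of the 19938 measured with 1 symbol: 33 of complex I, 4 of complex II, 8 of complex III, 19 of complex IV and 17 of complex V. Ndufa4 and Ndufa4l2 carry the name of complex I and were counted with complex IV, where the Ndufa4 protein is now known to belong.

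Complex I takes electrons from NADH, complex II is the succinate dehydrogenase of the citric acid cycle, complex III passes electrons from ubiquinol to cytochrome c, complex IV (cytochrome c oxidase) hands them to oxygen, and complex V is the ATP synthase. A catalytic core in each of the larger complexes is surrounded by small accessory subunits. Some of the small subunits of complex IV come in isoforms, one made in most tissues and another best known from heart, skeletal muscle, lung or hypoxic cells. Colonic epithelium oxidises butyrate from the gut lumen in its mitochondria, and tumors of the colon have long been studied for a shift from respiration to glycolysis. The 81 genes lie in the nucleus. Of the 13 protein-coding genes of the mitochondrial genome, 2 were measured with 1 symbol, as COX2 and ND3, and they are described apart, beside the sample numbers. Of the protein-coding genes that the symbol pattern takes in a RefSeq gene table, 6 are not analysed here.

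The mice were F1 hybrids of SWR females and C57BL/6 males and carried the Min allele of Apc beside a normal one. All had been given 4% dextran sodium sulfate, which injures the colon lining, in 2 treatments around weaning, so no group is untreated and normal mucosa was not analysed here. In each of 6 mice a colon tumor was biopsied through the colonoscope early and again late, with 1 Affymetrix array for each biopsy. The late biopsy was read as adenoma in mice 1755, 1803 and 1805 and as intramucosal carcinoma in mice 2201, 3407 and 3413, with 1 female in each set of 3. An early biopsy has no reading of its own and was grouped by how its animal's late biopsy was read, so "early adenoma" below means the early biopsy of a mouse whose late biopsy was adenoma. Mice of the adenoma group were 89.0 ± 4.4 days old at the early biopsy and 333 ± 86.4 at the late one, and those of the carcinoma group 99.7 ± 15.5 and 227 ± 35.2 (SD, n = 3 each), so age and reading differ together at the late biopsy. A biopsy is a piece of tissue: fewer cells of a type and less RNA per cell cannot be told apart.

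Values are log2 intensities as deposited, and differences below are on that log2 scale. The arrays had medians of 7.62 to 7.80, and 80 of the 81 subunit genes had a mean above the 25th percentile of all genes. The exception is Cox7b2, an isoform known from testis. Values of 3 mice are always given in the order 1755, 1803, 1805 for adenoma and 2201, 3407, 3413 for carcinoma. All defining epithelial markers (Epcam, Cdh1, Krt8, Krt18, Krt19, Krt20, Vil1, Cdx1, Cdx2, Lgals4) were measured, and their mean level per array ran from 11.49 to 12.77. The submitters' sample numbers form separate ranges, from 155 to 255 for the early arrays of mice 1755, 1803, 1805 and 2201 and from 319 to 379 for the other 8 arrays. The labels do not say what the numbers stand for. All 3 early adenoma arrays lie in the first range and 2 of the 3 early carcinoma arrays in the second.

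Levels of the 81 genes lay above their own 12-array mean, in the median, on all 3 early adenoma arrays and below it on both arrays of mice 3407 and 3413. As the median over the 81 genes of the deviation from a gene's own mean over 12 arrays, mice 1755, 1803 and 1805 stood at 0.178, 0.037 and 0.163 early and at 0.108, -0.046 and -0.043 late. Mice 2201, 3407 and 3413 stood at 0.031, -0.117 and -0.101 early and at -0.027, -0.109 and -0.095 late. The early arrays of mice 1755 and 1805 and the late array of mouse 1755 thus had the highest subunit levels, with 71, 72 and 70 of the 81 genes above their own mean, and both arrays of mice 3407 and 3413 the lowest, with 14 to 18. Over all 19938 genes the same median stayed between -0.035 and 0.068 on every array, and it was highest on the early array of mouse 2201.

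**Figure D1:**
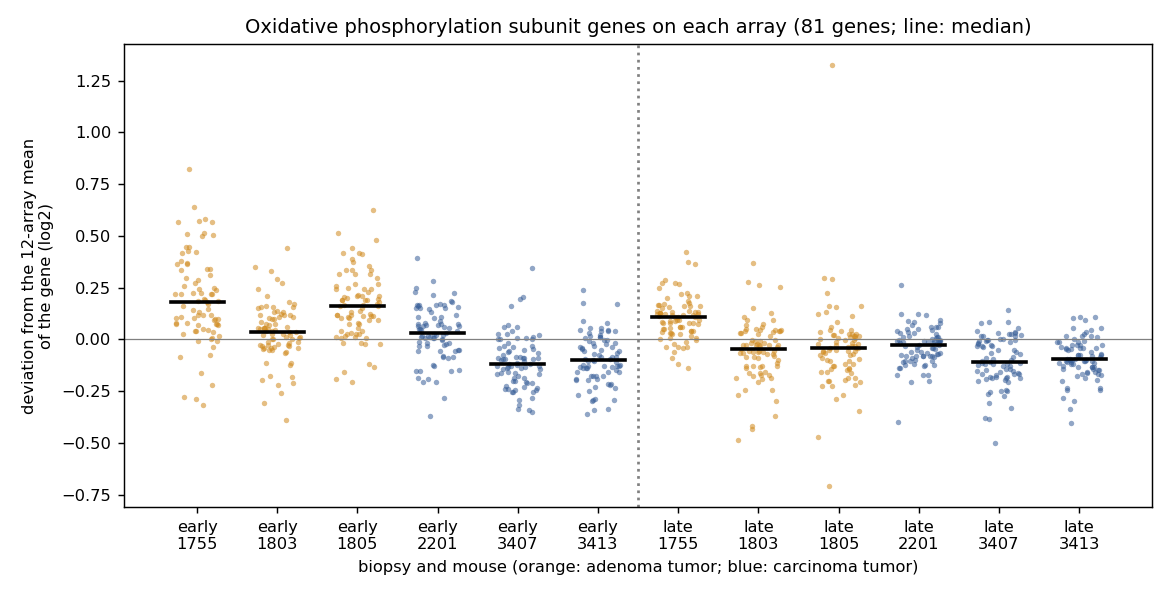
Each point is 1 of the 81 subunit genes on 1 array, as its deviation in log2 from that gene's mean over the 12 arrays, with early biopsies to the left of the dotted line, adenoma tumors in orange and carcinoma tumors in blue; black lines are medians. The early adenoma arrays have medians of 0.178, 0.037 and 0.163, and the arrays of mice 3407 and 3413 lie lowest at both times.

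The early biopsies were compared first, to ask how subunit transcripts of tumors later read as carcinoma differed from those of tumors later read as adenoma. Subunit levels were lower in the early carcinoma biopsies for 72 of the 81 genes (88.9%, beside 39.9% of all genes), with a median difference (carcinoma minus adenoma) of -0.20 against 0.04 over all genes. At an unadjusted p under 0.05, 39 of the 81 were lower and 0 higher, where 4.9% of all genes were lower and 7.06% higher. None of the 81 passed an adjusted p of 0.05 in limma (0.0% of all genes did), and the smallest adjusted p among them was 0.178. The lower levels were spread over the complexes: the medians were -0.20 for complex I, -0.19 for II, -0.22 for III, -0.19 for IV and -0.20 for V, with 17 of 33, 1 of 4, 4 of 8, 8 of 19 and 9 of 17 genes lower at an unadjusted p under 0.05.

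In complex I the greatest differences were those of Ndufa1, Ndufb8 and Ndufa6. Ndufb8 (probe set 10468016), a subunit of the membrane arm, read 10.70, 10.41 and 10.56 on the early adenoma arrays and 10.21, 9.89 and 9.98 on the early carcinoma arrays. Ndufa6 (probe set 10430846), an accessory subunit of the matrix arm, read 10.69, 10.45 and 10.54 and 10.24, 9.93 and 9.99. In both genes every adenoma array lay above every carcinoma array, and the carcinoma array nearest to them was that of mouse 2201. The differences were -0.53 (SE 0.102) for Ndufb8 and -0.51 (SE 0.103) for Ndufa6, with adjusted p of 0.178 and 0.197 in limma. Ndufa1, a small membrane subunit, differed by -0.53 (SE 0.131, adjusted p 0.25). Among the core subunits that carry electrons the differences were -0.27 for Ndufs1, which holds iron-sulfur clusters, -0.25 for Ndufv1, which binds NADH, and -0.08, -0.07 and -0.07 for Ndufv2, Ndufs7 and Ndufs8, partners in the same electron path. Ndufc1 (0.07) and Ndufa2 (0.18) were the 2 genes of complex I with higher values in the early carcinoma biopsies, both with an adjusted p over 0.7.

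Sdhb, the iron-sulfur subunit of complex II, read 11.10, 11.04 and 11.19 on the early adenoma arrays against 10.95, 10.69 and 10.73 on the early carcinoma arrays, a difference of -0.32 (SE 0.0989, adjusted p 0.292). The groups did not overlap. Its partners differed by -0.09 for Sdha, the flavoprotein that oxidises succinate, and by -0.12 and -0.25 for the membrane anchors Sdhc and Sdhd. In complex III all 8 genes had lower values, from -0.11 for Uqcrb to -0.40 for Uqcr10, a small subunit. Uqcrfs1, the Rieske iron-sulfur protein, read 10.01, 9.90 and 9.95 against 9.80, 9.60 and 9.60, a difference of -0.28 (SE 0.102, adjusted p 0.335), and the core protein Uqcrc2 differed by -0.24 (SE 0.0871).

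Complex IV held both directions. Cox6a1 (probe set 10532993), the widely expressed isoform of subunit VIa, read 12.15, 11.81 and 12.12 on the early adenoma arrays and 11.82, 11.32 and 11.28 on the early carcinoma arrays, -0.55 (SE 0.168) apart (adjusted p 0.292). Mouse 2201 lay inside the adenoma range and mice 3407 and 3413 well under it. Other widely expressed subunits were lower too, Cox4i1 at -0.26, Cox5a at -0.34 and Cox7a2 at -0.32, with adjusted p of 0.31, 0.327 and 0.298. Among isoforms known for narrower expression, Cox7a1, of heart and skeletal muscle, was at -0.47 (adjusted p 0.505), with 9.46, 9.02 and 9.95 against 8.96, 9.09 and 8.99. Mouse 1803 lay inside the carcinoma range. A further 6 had positive values: 0.22 for Cox6a2 and 0.12 for Cox8b, both known from heart and skeletal muscle, 0.14 for Cox4i2, known from lung, 0.09 for Ndufa4l2, known as a gene induced by hypoxia, and 0.12 and 0.02 for Cox6b2 and Cox8c, known from testis. Their adjusted p were 0.466, 0.645, 0.605, 0.797, 0.712 and 0.949, so no difference of an isoform passed the test.

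In the ATP synthase the catalytic subunits had small differences, Atp5b of -0.03 (SE 0.0665) and Atp5a1 of -0.16 (SE 0.0854). Atp5b read 13.56, 13.61 and 13.58 and 13.54, 13.48 and 13.63, with the groups overlapping. The greatest difference of all 81 genes was that of Atp5l (probe set 10553840), subunit g of the membrane part, at 11.18, 10.71 and 10.80 against 10.58, 10.02 and 10.03. Every adenoma array of Atp5l lay above every carcinoma array, with a difference of -0.69 (SE 0.169, adjusted p 0.243), a ratio of 0.619. Further small subunits of the membrane part followed, with -0.45 for Atp5k (subunit e), -0.38 for Atp5mpl and -0.31 for Atp5md, and Atp5pb, subunit b of the peripheral stalk, differed by -0.31. Atp5g2, one of 3 genes for the subunit of the rotating ring, was the only member of complex V with a higher value (0.20, adjusted p 0.669), while Atp5g3 differed by -0.26 and Atp5g1 by -0.09.

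Counted by overlap, 28 of the 81 genes (34.6%) had every early adenoma array above every early carcinoma array, where 7.31% of all genes did. The reverse was found for 0 of the 81, where 10.7% of all genes showed it. The 28 genes were 13 of complex I, 2 of II, 1 of III, 4 of IV and 8 of V. Taken singly against the mean of the 3 early adenoma arrays, the carcinoma arrays differed in degree. The array of mouse 2201 had a median of -0.10 over the 81 genes, with 68 lower and 40 below every adenoma array. Mouse 3407 had -0.23, with 71 and 62, and mouse 3413 had -0.20, with 67 and 56. The early array of mouse 2201 is the one that shares the first range of sample numbers with the adenoma arrays.

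**Figure D2:**
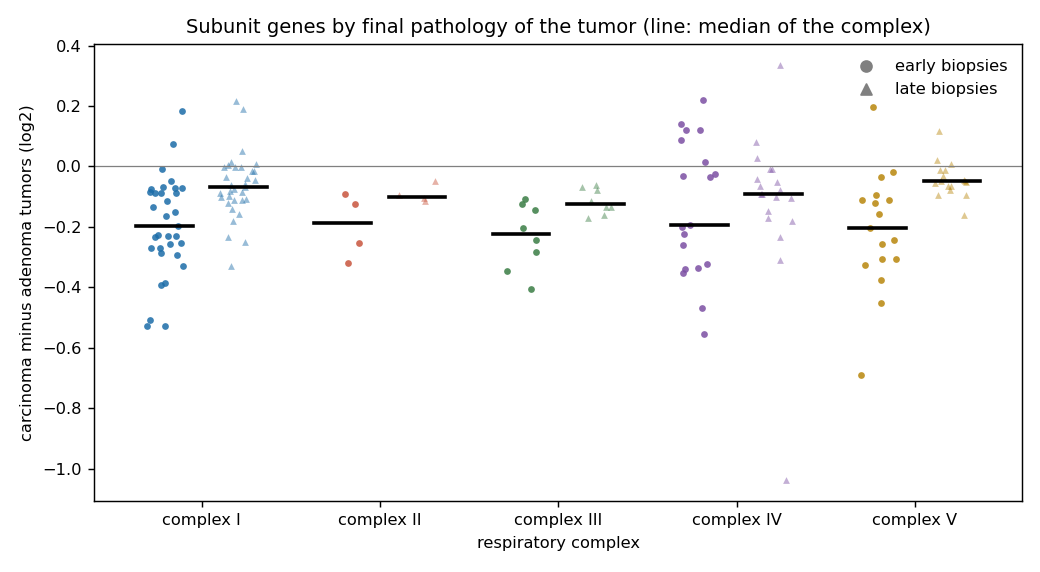
Carcinoma minus adenoma differences in log2 of each subunit gene, by complex, in early biopsies (circles) and late biopsies (triangles); black lines are the medians of a complex. Early medians lie near -0.2 in every complex, and late medians lie between -0.048 and -0.123; the lowest late point is Cox7a1 at -1.04.

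The early difference moved with other measures, whose part in it was not tested. Of the 28 genes whose early groups did not overlap, Ndufb8, Ndufa6 and Atp5l are among those whose levels also parted by the range of sample numbers. With the range of sample numbers as a term in the fit, the median of the 81 genes was -0.11 in place of -0.20. That value rests mainly on the early array of mouse 2201, the only early carcinoma array in the first range, so no count is given. At an unadjusted p under 0.05 in limma, 12 genes were lower without mouse 1755, beside 3.75% of all genes. The count was 22 (beside 5.15%) without mouse 1805, 11 (2.74%) without mouse 3407 and 12 (2.78%) without mouse 3413. It was 39 (4.9%) with all mice. Each of these fits without a mouse had a median of -0.18. Without mouse 1803 the count was 39 (beside 6.37%), with a median of -0.24. Without mouse 2201 it was 35 (beside 4.87%), with a median of -0.22. Epithelial markers were lower in the early carcinoma biopsies for 9 of 10 genes (median -0.265), with a mean level of 12.16 to 12.58 on the adenoma arrays against 11.66 to 12.19 on the carcinoma arrays. Markers of endothelium were higher for 7 of 7 (median 0.885), at 8.54 to 9.05 against 9.09 to 10.37, and those of fibroblasts and pericytes for 7 of 7 (median 0.865), at 9.35 to 10.52 against 10.10 to 11.71. Leukocyte markers were higher for 7 of 8, at 8.07 to 9.45 against 8.90 to 9.12, and mast cell markers for 3 of 4, at 8.84 to 11.86 against 10.42 to 10.74. Striated muscle markers, which bear on the muscle isoforms, were higher for 5 of 6, at 7.38 to 7.50 against 7.52 to 7.83, and those of smooth muscle for 4 of 6, at 8.74 to 10.08 against 8.63 to 10.15.

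**Figure D3:**
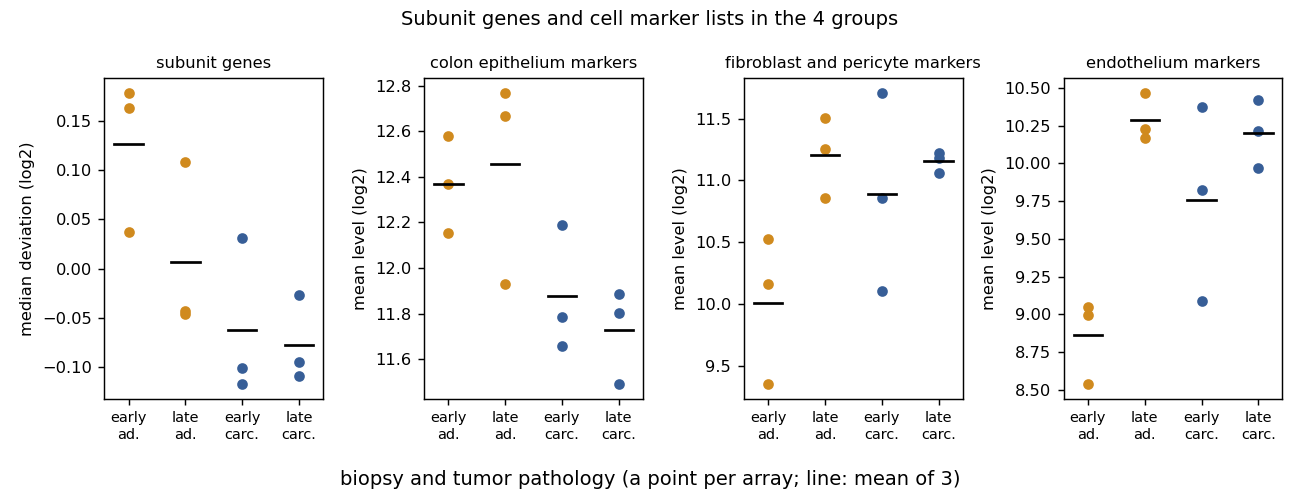
The first panel gives, for each array, the median deviation of the 81 subunit genes in log2, and the other panels give the mean log2 level of the epithelial, fibroblast and pericyte, and endothelial markers; orange points are adenoma tumors, blue points carcinoma tumors, and black lines the mean of 3 arrays. The early adenoma arrays lie lowest for endothelial markers, at 8.54 to 9.05, and their subunit medians of 0.037 to 0.178 lie above those of the 3 early carcinoma arrays.

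Among the late biopsies the readings lay closer in the median of the subunit genes. Their median difference (carcinoma minus adenoma) was -0.07 against 0.02 over all genes, with 69 of the 81 genes lower (85.2%, beside 45.8% of all genes). At an unadjusted p under 0.05, 6 were lower and 0 higher, beside 5.0% and 6.74% of all genes, and 0 passed an adjusted p of 0.05 in limma (0.0% of all genes), with 0.401 as the smallest. The count of lower genes was 3 without mouse 1755, 1805 or 3407, beside 4.45%, 2.27% and 2.85% of all genes. It was 4 without mouse 2201 (beside 3.41%) and 2 without mouse 3413 (beside 2.47%). Every late adenoma array lay above every late carcinoma array for 11 genes (13.6%, beside 6.12% of all genes) and below them for 1, Ndufa4 (1.23%, beside 8.77%). Whether the difference between readings was itself greater early than late is the difference of changes tested below.

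Cox7a1 (probe set 10551836), the isoform of subunit VIIa known from heart and skeletal muscle, had the greatest late difference. It read 9.70, 9.44 and 10.65 on the late adenoma arrays and 8.93, 8.83 and 8.92 on the late carcinoma arrays. The groups did not overlap, and the array of mouse 1805 stood highest. The difference was -1.04 (SE 0.262, adjusted p 0.401), and without mouse 1803 it was the only subunit gene to pass in limma, where 395 genes passed in place of 0. Ndufa4 went the other way, at 10.85, 10.81 and 10.26 against 11.00, 10.98 and 10.94, a difference of 0.34 (SE 0.194, adjusted p 0.51). Ndufv3, a small subunit next to the NADH site, read 9.02, 8.96 and 9.16 against 8.74, 8.66 and 8.74, -0.33 (SE 0.0854) apart (adjusted p 0.401). Ndufa6, Ndufb9, Ndufb3 and Cox4i2 made up the 6 genes with Cox7a1 and Ndufv3, at -0.23, -0.18, -0.25 and -0.23.

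By complex the late medians were -0.07 for I, -0.10 for II, -0.12 for III, -0.09 for IV and -0.05 for V. Differences were -0.11 for Sdhd and -0.10 for Sdhc in complex II, -0.17 for Uqcr11 and -0.16 for Uqcrfs1 in complex III, and -0.16 for Atp5g3 in complex V, each with an adjusted p over 0.4. The catalytic subunits of the ATP synthase were at -0.05 for Atp5a1 and -0.01 for Atp5b. The late arrays all lie in the second range of sample numbers. Epithelial markers were lower in late carcinoma biopsies for 10 of 10 genes (median -0.44, 7 at an unadjusted p under 0.05), at 11.49 to 11.89 against 11.93 to 12.77, while those of endothelium had a median of -0.032 and those of fibroblasts and pericytes of -0.036. Smooth muscle markers were lower for 6 of 6 (median -0.456) and mast cell markers higher for 4 of 4 (median 0.93). Leukocyte and striated muscle markers had medians of -0.026 and 0.001. Alas2, which makes heme in red cell precursors and was the one gene measured of an erythroid list, was at -1.60 (SE 0.696, adjusted p 0.422). The part of these markers in the subunit differences was not tested.

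Late biopsies were then compared with the early biopsies of the same tumors. These comparisons share the early arrays with the comparison above, so the same early levels enter both. In adenoma tumors the late biopsy was lower for 60 of the 81 genes (74.1%, beside 52.8% of all genes), with a median of -0.11 against -0.01 over all genes. At an unadjusted p under 0.05, 26 were lower and 5 higher, beside 10.7% and 7.38% of all genes. None passed an adjusted p of 0.05 in limma, where 0.125% of all genes did, and the smallest adjusted p was 0.058 for Ndufb8. The late array was lower in 3 of 3 adenoma mice for 39 genes (48.1%, beside 22.4% of all genes) and higher in 3 of 3 for 7 (8.64%, beside 17.0%). Medians by complex were -0.14 for I, -0.04 for II, -0.15 for III, -0.02 for IV and -0.12 for V. Without mouse 1805 the count of lower genes was 16 in place of 26, beside 8.03% in place of 10.7% of all genes. That of higher genes was 2 without mouse 1803 (beside 7.13% of all genes), in place of 5. It was 3 without mouse 1755, 1805, 3407 or 3413, beside 5.12%, 6.91%, 6.39% and 6.65% of all genes.

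The late-early differences in adenoma tumors with the smallest p were those of Ndufb8, Ndufa6 and Atp5l. Ndufb8 read 10.15, 9.95 and 9.996 on the late adenoma arrays, -0.56, -0.46 and -0.56 from the early ones, a mean difference of -0.52 (SE 0.0721). Ndufa6 read 10.15, 10.09 and 9.94 late, with differences of -0.54, -0.37 and -0.60 and a mean of -0.50 (SE 0.0762, adjusted p 0.0707). Atp5l read 10.40, 9.94 and 10.24 late, with differences of -0.78, -0.77 and -0.56 and a mean of -0.70 (SE 0.11, adjusted p 0.0715). In each of these genes every late adenoma array lay below every early adenoma array. Ndufb2 (-0.58), Ndufs1 (-0.42) and Ndufc2 (-0.46) followed in complex I, with adjusted p of 0.103, 0.102 and 0.106, and Atp5e, subunit epsilon of the ATP synthase, was at -0.47 (SE 0.0889, adjusted p 0.0923). In complex III, Uqcr10 was at -0.41 (SE 0.101) and Uqcrq at -0.32 (SE 0.108), with adjusted p of 0.128 and 0.208. In complex II, Sdhb was at -0.25 (SE 0.0841, adjusted p 0.201) and Sdha at -0.02. Ndufc1, a complex I subunit, was the one gene outside complex IV among the 5 higher at an unadjusted p under 0.05, at 0.29 (SE 0.108). Atp5b read 13.62, 13.60 and 13.53 late, 0.06, -0.01 and -0.05 from early, and Atp5a1 had a mean difference of -0.05.

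In 3 isoform pairs of complex IV the differences in adenoma tumors had opposite signs. Cox6a1 was lower late in 3 of 3 mice, at -0.37, -0.47 and -0.19, and its muscle isoform Cox6a2 higher in 3 of 3, at 0.20, 0.25 and 0.14. Cox7a2, the widely expressed form of subunit VIIa, differed by -0.28, -0.08 and -0.16 and Cox7a1 by 0.24, 0.42 and 0.70. Cox4i1, the widely expressed form of subunit IV, differed by -0.15, -0.04 and -0.21 and Cox4i2 by 0.28, 0.20 and 0.34. The members of each of these pairs thus lay on opposite sides of 0 in every adenoma mouse, although no single gene passed the adjusted test: adjusted p were 0.175 for Cox6a1, 0.246 for Cox6a2, 0.299 for Cox7a2, 0.119 for Cox7a1, 0.415 for Cox4i1 and 0.149 for Cox4i2. The mean levels of Cox6a2 and Cox4i2 lay at percentiles 44.2 and 43.0 of all genes, those of Cox6a1 and Cox4i1 at 95.2 and 91.5. Small differences of such dim genes have no bound against background. In all 3 adenoma mice the early and late arrays also lie in different ranges of sample numbers.

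Ndufa4 had one of the greatest differences in adenoma tumors, at 11.47, 11.41 and 11.01 early and 10.85, 10.81 and 10.26 late, a mean of -0.66 (SE 0.125, adjusted p 0.0927). Its paralogue Ndufa4l2 read 7.17, 7.29 and 7.19 early and 7.30, 7.69 and 7.46 late, a mean of 0.27 (SE 0.106, adjusted p 0.249). The mean level of Ndufa4l2 lay at percentile 35.2 of all genes and that of Ndufa4 at 89.8. Without mouse 2201, which leaves the adenoma arrays as they are and alters only the shared spread, Ndufa4 and Atp5l passed the adjusted test, where 78 genes passed in place of 25. The difference of the narrower isoform minus that of the widespread one averaged 0.93 ± 0.15 for Ndufa4l2 over Ndufa4 in adenoma mice against -0.01 ± 0.53 in carcinoma mice (SD, n = 3). It was 0.63 ± 0.21 against -0.17 ± 0.21 for Cox7a1 over Cox7a2, 0.54 ± 0.19 against 0.07 ± 0.15 for Cox6a2 over Cox6a1, and 0.40 ± 0.16 against -0.08 ± 0.07 for Cox4i2 over Cox4i1. Cox8b over Cox8a showed no such gap, at 0.03 ± 0.06 against -0.04 ± 0.20. These pairs were set side by side after their values were known, so no test of the pairs is given.

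**Figure D4:**
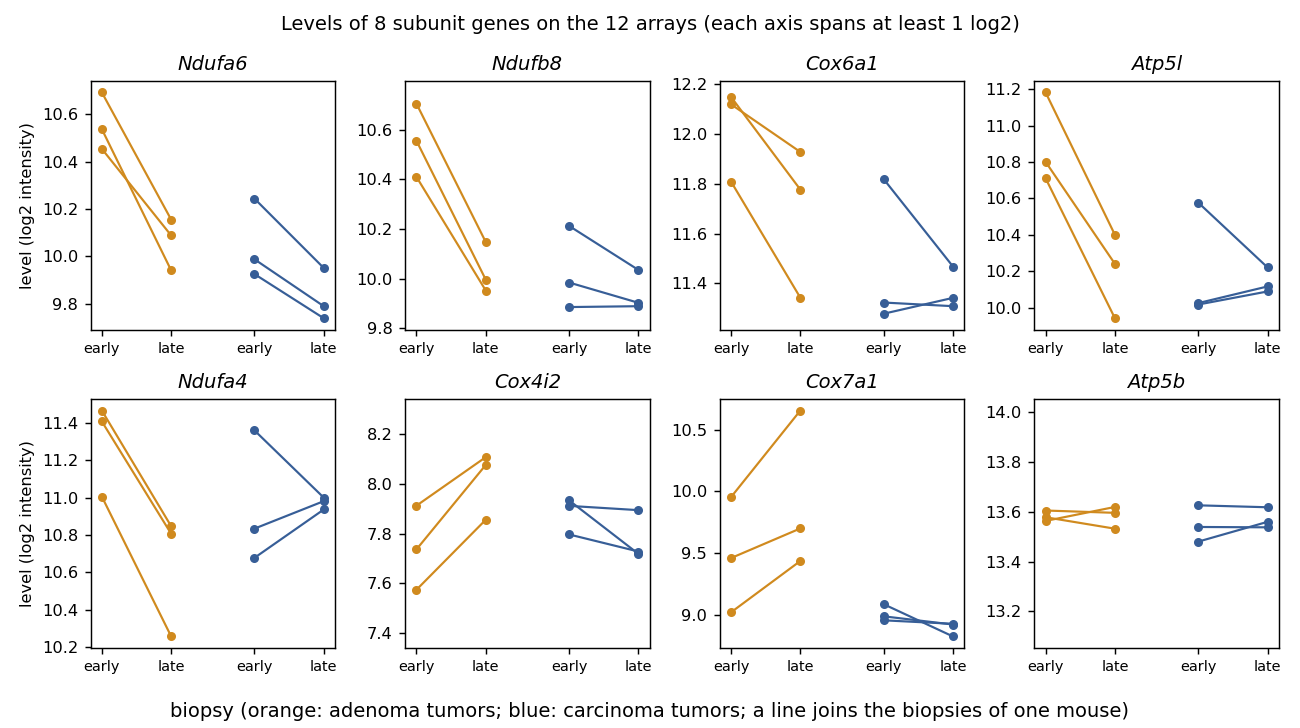
Log2 levels of 8 subunit genes on the 12 arrays, with a line joining the early and the late biopsy of a mouse; adenoma tumors are orange and carcinoma tumors blue. Ndufa6, Ndufb8 and Atp5l lie lower late in all 3 adenoma mice, Cox4i2 and Cox7a1 lie higher late in the same mice, and Atp5b, a catalytic subunit of the ATP synthase, stays between 13.48 and 13.63 on the 12 arrays.

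In carcinoma tumors the median late-early difference lay near that of all genes. The median over the 81 genes was -0.02 against -0.03 over all genes, and 50 genes were lower (61.7%, beside 60.2% of all genes). At an unadjusted p under 0.05 1 gene, Ndufa6, was lower and 0 were higher, beside 2.61% and 1.7% of all genes. No gene passed in limma (0.0% of all genes), and the smallest adjusted p of a subunit gene was 0.952. The late array was lower in 3 of 3 carcinoma mice for 7 genes (8.64%, beside 16.9% of all genes) and higher in 3 of 3 for 10 (12.3%, beside 9.73%). Ndufa6 read 10.24, 9.93 and 9.99 early and 9.95, 9.74 and 9.79 late, -0.23 (SE 0.0762). Cox7a1 differed by -0.03, -0.26 and -0.07 and Cox4i2 by -0.07, -0.02 and -0.22, lower in every carcinoma mouse and higher in every adenoma mouse. Medians by complex were -0.03 for I, 0.02 for II, -0.01 for III, -0.02 for IV and 0.00 for V. Cox5b, a zinc-binding subunit of complex IV, was higher late in 3 of 3 mice, at 0.13 (SE 0.0847). The differences of Sdhd (0.09), Uqcr10 (-0.12) and Atp5e (-0.18) did not pass either.

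The late-early difference of the carcinoma tumors minus that of the adenoma tumors tests whether the readings parted. Its median over the 81 genes was 0.10 against -0.01 over all genes, with 63 genes positive and 18 negative (22.2%, beside 52.9% of all genes). At an unadjusted p under 0.05, 8 genes were positive and 2 negative, beside 3.68% and 3.37% of all genes. None passed in limma (0.0% of all genes), and the smallest adjusted p was 0.621. Without mouse 2201 the count of positive genes was 16 in place of 8, beside 4.11% in place of 3.68% of all genes. Without mouse 1755, 1805 or 3413 it was 5, beside 3.33%, 3.2% and 2.09% of all genes. The positive ones included Ndufa4 at 0.67 (SE 0.177), Atp5l at 0.64 (SE 0.155), Ndufb8 at 0.44 (SE 0.102) and Ndufa1 at 0.41 (SE 0.112), and the negative ones were Cox7a1 at -0.57 (SE 0.148) and Cox4i2 at -0.37 (SE 0.106). In complexes II and III the values were 0.23 for Sdhb, 0.14 for Sdhd, 0.29 for Uqcr10 and 0.18 for Uqcrc2. This contrast partly mixes reading with the range of sample numbers. Both biopsies of mice 3407 and 3413 lie in the second range, while the pairs of the other mice cross the ranges. With the range as a term the median over the 81 genes was 0.07, against -0.06 over all genes. That fit rests on mouse 2201 set against mice 3407 and 3413.

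Over all 6 tumors the late biopsy had lower values for 52 of the 81 genes (64.2%, beside 57.9% of all genes), with a median of -0.07 against -0.02 over all genes. At an unadjusted p under 0.05, 15 were lower and 1, Ndufc1, was higher, beside 9.06% and 5.68% of all genes, and 0 passed an adjusted p of 0.05 in limma (0.0% of all genes). The smallest adjusted p was 0.206, for Ndufa6 at -0.36 (SE 0.0708). Ndufa6, Ndufa7 and Uqcrc1, a core protein of complex III, were lower late in 6 of 6 mice (3.7% of the 81, beside 5.18% of all genes), and 0 were higher in 6 of 6 (beside 2.59%). Ndufs1 was at -0.31 (SE 0.0708), Atp5e at -0.32 (SE 0.0795), Atp5h at -0.23 (SE 0.0704), Uqcr10 at -0.26 (SE 0.0853), Cox7a2l, a protein that joins complexes III and IV, at -0.26 (SE 0.088) and Cox6a1 at -0.22 (SE 0.0821). The remaining subunits named throughout were at -0.12 for Ndufv1, -0.04 for Uqcrfs1, -0.08 for Cox4i1, -0.12 for Cox5a, 0.11 for Cox8a, 0.00 for Sdha, 0.01 for Atp5a1 and 0.01 for Atp5b. Without mouse 1755 the count of lower genes was 7 in place of 15, beside 5.94% in place of 9.06% of all genes. Without mouse 1805 and without mouse 2201 it was 10, beside 7.46% and 6.57%, and without mouse 3413 it was 23, beside 10.2%.

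Mouse by mouse, the median difference of the 81 genes was -0.062 in mouse 1755 (46 lower), -0.056 in mouse 1803 (51), -0.192 in mouse 1805 (71), -0.065 in mouse 2201 (55), 0.019 in mouse 3407 (33) and 0.021 in mouse 3413 (31). Of all genes 49.8%, 55.7%, 52.8%, 64.9%, 47.4% and 53.0% were lower late in these mice, in the same order. In mouse 1805, 17 of 17 genes of complex V were lower late, with a median of -0.285. In mice 1755 and 1803 the median of complex IV was positive, at 0.039 and 0.075, while that of complex I was negative, at -0.109 and -0.086. Mouse 2201 had a median over all genes of -0.087, below that of its subunit genes, and the other mice had medians over all genes from -0.025 to 0.010.

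**Figure D5:**
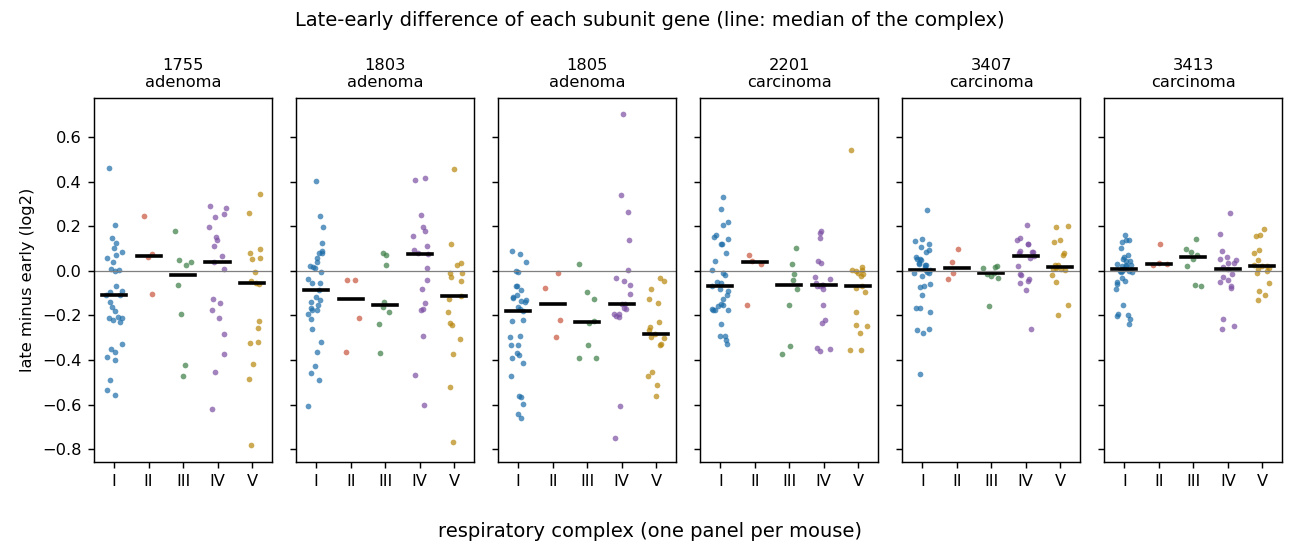
Late minus early difference in log2 of each subunit gene, with 1 panel per mouse and the respiratory complex on the horizontal axis; black lines are medians of a complex. Mouse 1805 has medians from -0.147 to -0.285, and the panels of mice 3407 and 3413 centre near 0.

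The mice with negative medians were those whose biopsies lie in different ranges of sample numbers. In the 4 such pairs (1755, 1803, 1805, 2201) the median of the subunit genes ran from -0.192 to -0.056, beside -0.087 to 0.001 over all genes. In the 2 pairs within the second range (3407, 3413) it ran from 0.019 to 0.021, beside -0.01 to 0.01. With the range as a term, the median over all tumors was 0.01 with 0 genes lower at an unadjusted p under 0.05, and in adenoma tumors it was -0.04 with 1 gene lower in place of 26. The shares over all genes fell as well. Over all tumors 1.09% in place of 9.06% of all genes were lower at that p, and in adenoma tumors 2.61% in place of 10.7%. All 3 adenoma pairs cross the ranges, so in them range and time cannot be told apart. With the term, the effect of time over all tumors rests on mice 3407 and 3413, and the effect of the range in the fit by reading rests on mouse 2201 against these mice.

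Single genes showed the ranges too. For 18 of the 81 genes (22.2%) all 4 arrays of the first range lay above all 8 of the second, where 1.69% of all genes did so, and for 0 of the 81 they lay below (2.18% of all genes). The 18 included Ndufb8, Ndufa6, Atp5l and Ndufa4, which lead the comparisons above. The genes of the mitochondrial genome, found by gene ID after the other values were known, parted in the same way. COX2 (probe set 10353630), here the mitochondrial subunit II of cytochrome c oxidase, read 14.04 to 14.07 on the 4 arrays of the first range and 13.82 to 13.90 on the other 8. ND3 (probe set 10598055), a membrane subunit of complex I, read 13.21 to 13.52 and 12.80 to 12.92. A second probe set of each gene also parted by range, at 13.97 to 13.99 and 13.76 to 13.82 for COX2 and at 12.31 to 12.62 and 11.92 to 12.06 for ND3. The early array of mouse 2201, whose late biopsy was read as carcinoma, thus stood with the early adenoma arrays. The early arrays of mice 3407 and 3413 stood with the late ones. In limma ND3 was at -0.55 (SE 0.0912, adjusted p 0.0819) late against early in adenoma tumors and at -0.48 (SE 0.108, adjusted p 0.208) in early carcinoma against adenoma biopsies. COX2 was at -0.19 (SE 0.074, adjusted p 0.245) and -0.14 (SE 0.0752, adjusted p 0.497). With the range as a term ND3 was at -0.21 and -0.23 and COX2 at -0.01 and 0.00. A further 3 probe sets that name a mitochondrial gene beside another gene were left out.

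Endothelial markers differed along the same line between the ranges: their mean late-early difference was 1.42, 1.63, 1.24 and 1.33 in mice 1755, 1803, 1805 and 2201 and 0.15 and -0.15 in mice 3407 and 3413. Fibroblast and pericyte markers differed by 1.09, 2.16, 0.34 and 1.08 against 0.37 and -0.65, epithelial markers by 0.09, -0.23, 0.40 and -0.30 against -0.17 and 0.02, and mast cell markers by -3.06, -0.22, -1.88 and 0.29 against -2.25 and -1.05. The mean of the leukocyte markers was higher late in 6 of 6 mice, by 0.12 to 1.03, but single markers went both ways. In mouse 1805 S100a8 differed by 3.29 and Cd3e by -0.95, and in mouse 2201 by -0.98 and 1.55. Smooth muscle markers differed by 0.71, 1.39, -0.51 and 1.03 against 0.12 and -0.77 and striated muscle markers by -0.23 to 0.11. Alas2 differed by 1.48, 1.77, 4.10 and -0.82 against 1.63 and 0.34. The part of these markers in the subunit differences was not tested.

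Promoters are shown for the genes on which these contrasts turn: Atp5l and Cox6a1, with lower values in early carcinoma and in late adenoma biopsies, Ndufa6, with a lower late value in every mouse, and Cox7a1, with the opposite sign in adenoma tumors. They were chosen with their values known. Each line gives the 250 bases before the transcription start from RefSeq (GRCm38.p6), 5′ to 3′ on the gene's strand, and capitals mark exact matches on either strand to the cores CGCATGCG (nuclear respiratory factor 1, a regulator of many respiratory genes), CCGGAAG (ETS factors), AAGATGG (YY1) and CAAGGTCA (estrogen-related receptors). The regions are chr9:44920743-44920992, minus strand for Atp5l, chr5:115348959-115349208, minus strand for Cox6a1, chr15:82354292-82354541, minus strand for Ndufa6 and chr7:30183921-30184170, plus strand for Cox7a1.
Atp5l: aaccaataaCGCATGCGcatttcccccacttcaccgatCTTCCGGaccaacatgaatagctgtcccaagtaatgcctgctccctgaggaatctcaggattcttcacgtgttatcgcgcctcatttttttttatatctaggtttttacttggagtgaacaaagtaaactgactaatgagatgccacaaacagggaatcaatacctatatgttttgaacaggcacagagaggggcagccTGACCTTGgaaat
Cox6a1: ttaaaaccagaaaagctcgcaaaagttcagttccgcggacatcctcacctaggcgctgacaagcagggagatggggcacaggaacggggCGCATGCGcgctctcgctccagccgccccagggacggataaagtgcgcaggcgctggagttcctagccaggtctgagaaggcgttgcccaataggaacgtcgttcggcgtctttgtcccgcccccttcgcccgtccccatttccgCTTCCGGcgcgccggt
Ndufa6: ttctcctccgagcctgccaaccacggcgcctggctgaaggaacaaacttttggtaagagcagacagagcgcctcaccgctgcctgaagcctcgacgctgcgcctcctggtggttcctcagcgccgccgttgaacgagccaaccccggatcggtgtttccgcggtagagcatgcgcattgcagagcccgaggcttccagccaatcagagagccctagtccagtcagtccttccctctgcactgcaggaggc
Cox7a1: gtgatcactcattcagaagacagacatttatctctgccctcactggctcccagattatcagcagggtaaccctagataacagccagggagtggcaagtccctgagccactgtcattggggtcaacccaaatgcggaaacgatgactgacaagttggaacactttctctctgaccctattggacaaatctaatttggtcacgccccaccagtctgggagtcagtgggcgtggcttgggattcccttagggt

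In Atp5l the capitals are, in order, the nuclear respiratory factor 1 core, whose first base lies at -241 from the start, the ETS core read on the opposite strand at -212 and the estrogen-related receptor core read on the opposite strand at -13. In Cox6a1 they are the nuclear respiratory factor 1 core at -161 and the ETS core on the opposite strand at -16. The windows of Ndufa6 and Cox7a1 hold none of these letters. Of the 81 genes, 66 have a promoter in the table of 27025 genes, searched from 250 bases before to 50 bases after the start. The nuclear respiratory factor 1 core was found in 9 of 66 (13.6%) against 2.07% of all promoters, the ETS core in 17 (25.8%) against 9.93%, the YY1 core in 10 (15.2%) against 7.28% and the estrogen-related receptor core in 4 (6.06%) against 1.76%. No matches of different cores overlapped in these 66. The 17 genes with an ETS core were all lower in the early carcinoma biopsies, with a median of -0.24. The 32 genes with any of the cores had a median of -0.21 (30 lower) beside -0.20 (32 lower) in the 34 with none. In the late-early comparison of adenoma tumors 11 of the 17 were lower (median -0.18), as were 22 of the 32 with any core (median -0.13) and 28 of the 34 with none (median -0.11). A match is a description of the letters and not of binding.

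The other nuclear genes of the pathway were described from lists. Of 44 assembly factors, which build the complexes without being part of them, 40 were measured, and 0 passed an adjusted p of 0.05 in limma in any comparison. In the early biopsies 29 of 40 were lower in carcinoma tumors (median -0.06), with 3 lower and 0 higher at an unadjusted p under 0.05 beside 4.9% and 7.06% of all genes, among them Cox20 at -0.29 and Cox11 at -0.23. In adenoma tumors 30 of 40 were lower late (median -0.10), 6 lower and 1 higher at an unadjusted p under 0.05 beside 10.7% and 7.38% of all genes, with Atpaf1, which builds the catalytic part of the ATP synthase, at -0.32 and Tmem70, which serves the same complex, at -0.39. The counts of assembly factors at that p stood close to these shares, while the counts of lower genes did not. Of all genes 39.9% were lower in the early comparison (median 0.04) and 52.8% lower late in adenoma tumors (median -0.01). The electron carrier cytochrome c (Cycs) was at -0.20 in adenoma tumors and -0.17 in the early comparison, and cytochrome c1 (Cyc1) at 0.00 and -0.07.

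Upstream of the respiratory chain, 16 of 17 genes of pyruvate dehydrogenase and the citric acid cycle were measured. In the early comparison 14 of 16 were lower in carcinoma tumors (median -0.07), 3 lower and 0 higher at an unadjusted p under 0.05 beside the same 4.9% and 7.06% of all genes, including Sucla2 at -0.35 and Suclg2 at -0.48, both subunits of succinyl-CoA ligase. In adenoma tumors 12 of 16 were lower late (median -0.10), 4 lower and 0 higher at that p beside 10.7% and 7.38% of all genes, with Idh3a, a subunit of isocitrate dehydrogenase, at -0.48. The 77 genes of the mitochondrial ribosome, which translates the subunits encoded in the mitochondrion, had a median of -0.14 in adenoma tumors, with 62 lower, and 21 lower and 1 higher at an unadjusted p under 0.05, again beside 10.7% and 7.38% of all genes. Mrpl22 was at -0.67 and Mrps33 at -0.58 there. In the early comparison the ribosomal genes had a median of -0.04, with 49 lower, and 8 lower and 2 higher at an unadjusted p under 0.05 beside 4.9% and 7.06%. The 12 regulators of mitochondrial biogenesis had a median of -0.09 in adenoma tumors (9 lower) and -0.01 in the early comparison (6 lower). Ppargc1a, the coactivator that drives respiratory gene expression, differed by -0.14, -0.47 and -1.29 in the adenoma mice and by -0.55, 0.36 and 0.34 in the carcinoma mice, with an adjusted p of 0.264 in adenoma tumors. No gene of these lists passed the adjusted test in any of the 6 comparisons.

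Of the 81 genes, 16 had several probe sets. Their mean late-early differences spread by at most 0.09 within a gene (Cox7a2l), and the 6 probe sets of Atp5l, which may in part match processed copies of the gene elsewhere in the genome, ran from -0.38 to -0.32. The RefSeq table holds 18 pseudogenes of the pattern, and 6 probe sets shared between a subunit gene and a copy were left out. Probe sets of small subunits with many copies can carry signal of the copies, and their part was not tested.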

How the data were processed

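Expression in 12 colon tumor biopsies of 6 mice was measured on Affymetrix arrays, with an early and a late biopsy of each animal. The deposited log2 intensities of 35557 probe sets were used as deposited. No label states the unit; values ran from 2.56 to 14.83, as log2 values do. The summary and normalisation that the authors applied are not given in the sources used here. Precision is limited by the number of arrays.

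Of the probe sets, 21789 carry 1 gene symbol in the platform annotation, 1621 several and 12147 none. All gene tests were run in limma 3.58.1 under R 4.3.3 (linear fit with empirical Bayes, two-sided moderated t, Benjamini-Hochberg adjustment over 19938 genes, threshold 0.05), which was tested on simulated data. Late was compared with early with mouse as a fixed block, over all tumors and by reading. Carcinoma was compared with adenoma in a fit of 4 groups with mouse as a random block (correlation 0.286). Residual degrees of freedom were 5, 4 and 8. The pairing comes from the animal, and the arrays of a mouse correlated at 0.11 to 0.53 in their deviations from the mean of their time point. Nothing replicates a biopsy, so p-values measure the spread between mice.

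For each comparison the 2 genes of each complex with the smallest p and a list of 19 subunits, 18 of them measured, were named by rule. Any other member was named after its values were seen. The members, lists, comparisons and alternatives were chosen with earlier results of these data known. The alternatives were leaving out a mouse, no block, the mean of probe sets, dim genes left out, quantile normalisation, equal array medians, another prior and the range of sample numbers as a term.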

Additional observations from a re-analysis of the deposited data

Results flagged for a closer look

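Levels were set apart from the others of their time point, by a gap test on 6 arrays at the 95% level, in 7 of 72 tests, where chance gives about 1 in 20. The late array of mouse 1755, an adenoma, stood high in the median deviation of complex I (0.118) and of complex V (0.079) and in Atp5a1 (12.603) and Cox8a (12.633). The early array of mouse 3407 was low for Atp5a1 (12.227). The late array of mouse 1805 was low for Ndufa4 (10.256), and the early array of mouse 3413 was high for Ndufa4l2 (7.50).

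Cox7a1 and Cox4i2 had late-early differences that were positive in 3 of 3 adenoma mice and negative in 3 of 3 carcinoma mice. The difference between the readings was -0.571 for Cox7a1 and -0.373 for Cox4i2, and both had an adjusted p of 0.621 in limma.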

How the results depend on the processing

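Under the alternatives, the counts of subunit genes past the adjusted threshold stayed at 0 except when a mouse was left out, with a range of 0 to 2 in adenoma tumors (2 without mouse 2201) and of 0 to 1 between the late readings (1 without mouse 1803). With the range of sample numbers as a term, the median over the 81 genes was 0.01 over all tumors and 0.01 in carcinoma tumors, both of opposite sign to the fit without it, and -0.11 between the early readings. Under the same term Uqcrq was at 0.022 and Cox6a1 at 0.025 over all tumors, and at 0.074 and 0.032 in adenoma tumors. The median in carcinoma tumors ran from -0.028 to 0.01 with a mouse left out, and only without mouse 2201 was it positive. Without the replicate block (mouse), 8 genes in place of 15 were lower over all tumors at an unadjusted p under 0.05 and 0 passed the adjusted threshold. The share of all genes lower at that p was 5.41% in place of 9.06%. The block changed no adjusted call of a subunit gene in the other comparisons. With array medians set equal the count over all tumors was 27 in place of 15, beside 14.2% in place of 9.06% of all genes. Of the values of single genes under alternatives, 1846 kept sign and side of the threshold, 84 turned sign with an unadjusted p over 0.05 in both fits, 4 (those of Uqcrq and Cox6a1 above) turned sign with one under it, and 3 came to pass the adjusted threshold (Atp5l, Ndufa4 and Cox7a1). The cause of these shifts was not tested. Signal over background is not given with the values, so dim genes such as Cox7b2 have no bound.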

Other observations

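Isoforms of complex IV known from testis (Cox6b2, Cox7b2 and Cox8c) had small differences by time and by reading. Their early carcinoma minus adenoma differences were 0.12, -0.03 and 0.02, their late-early differences in adenoma tumors -0.02, -0.04 and 0.03, and none passed the test in limma, with adjusted p of 0.71 or higher in these comparisons. Cox7b2 lay between 4.84 and 5.20 on the 12 arrays. The late biopsies of the adenoma tumors differed among themselves in Cox7a1, at 9.70, 9.44 and 10.65, where those of the carcinoma tumors lay between 8.83 and 8.93.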
